A study of Mus musculus with 2 samples.

Results

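Among the cells captured from mouse hearts at postnatal day 1 (P1) was a small set of lung-like stromal and endothelial cells. They were picked by 6 genes that are known from the lung: Foxf1, Tbx4, Hoxa5, Hsd11b1, Inmt and Scn7a. A cell was a member when at least 3 of the 6 genes had at least 1 unique molecular identifier (UMI, a tag that counts each captured mRNA molecule once) and Upk3b, a mesothelial gene, had none. Of 4991 P1 cells kept, 100 met the rule, which is 2.00% (95% interval 1.63 to 2.43%). They were divided by Cdh5, which encodes the VE-cadherin of endothelial junctions. 59 members had a Cdh5 UMI and are called Cdh5-positive members, and 41 had none and are called Cdh5-negative members. The other 1918 Cdh5-positive and 2973 Cdh5-negative P1 cells were used for comparison, each with the members of the same Cdh5 state. The rule read measured values, so the name describes the genes of these cells and not a recorded place of origin, and the levels of its 6 genes and every comparison of members with other cells are descriptions, and no test was made.

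The study profiled live cells of whole hearts at P1 and at P7 by droplet single cell RNA-seq and made 1 library of each age. In each library 3 hearts of the same litter had been pooled, minced and digested with Collagenase II, for 20 min at P1 and for 45 min at P7, before red cell lysis and a sort of 7-AAD-negative cells. The study kept its modified lines on a C57BL/6 background and used mice of either sex, but the sources used here do not give the strain, genotype or sex of these hearts, and no group carried a stated transgene or treatment. Over both libraries 13502 cells were kept. The P1 library held 63585504 UMIs in 7836 barcodes, with a median of 10875 UMIs in the cells kept, and the P7 library held 98346195 UMIs in 9077 barcodes, with a median of 10104 UMIs. Xist, the RNA of the inactive X chromosome, had 57336 UMIs at P1 and 12 at P7, whereas the Y-linked Ddx3y had 0 UMIs at P1 and 7623 at P7. Among the members 97 of 100 had an Xist UMI and none had a Ddx3y UMI. Age, digestion time, litter and sex therefore differed together between the libraries and cannot be told apart. 13 barcodes occurred among the cells kept of both libraries.

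Members were shallower than the cells they were compared with. The median was 6175 UMIs per cell in Cdh5-positive members, with a range of 1146 to 35639, against 10939.5 in other Cdh5-positive cells. It was 7084 UMIs in Cdh5-negative members, with a range of 1370 to 31116, against 11027 in other Cdh5-negative cells. Levels are therefore given as counts per 1000000 UMIs (CPM), summed over the cells of a group. Differences are given as the log2 ratio of these levels, members over other cells, with 0.5 counts added to each sum. Shares of cells with a UMI are also given after thinning every cell to 2000 UMIs, which left out 3 members. The 95% intervals, are exact Poisson for levels, Clopper-Pearson for shares and binomial (conditional on the sum) for ratios, and cover counting error only. As cells of 1 library are not replicates, they carry no information on the spread between animals.

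FOXF1 is a forkhead transcription factor that is needed for the lung mesenchyme and the lung capillary bed, and TBX4 and HOXA5 are transcription factors of lung and other foregut mesenchyme. HSD11B1 regenerates active glucocorticoid within cells, INMT methylates indolamines, and SCN7A belongs to the sodium channel family. Lung capillaries are lined by general capillary cells and by aerocytes, thin cells rich in Car4 that also carry Ednrb, Tbx2, Apln and Emp2. Around them lie fibroblasts that deposit elastic fibres, and pericytes. Heart capillaries, in contrast, are known for genes of fatty acid uptake such as Fabp4 and Cd36, which are controlled by MEOX2 and TCF15.

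The 6 genes that chose the members did so in different combinations on either side of the Cdh5 split. In 55 of 59 Cdh5-positive members the 3 genes found were Foxf1, Hoxa5 and Scn7a. Scn7a had a lowest, median and highest count of 0, 10 and 49 UMIs per cell and 1343 CPM, against 24.2 CPM in other Cdh5-positive cells. Foxf1 had 0, 8 and 27 UMIs per cell and 960 CPM, against 15.04 CPM. Hoxa5 was lower, at 0, 2 and 8 UMIs per cell and 244 CPM, against 5.5003 CPM, although 58 of 59 cells held it. After thinning, a Foxf1 UMI was found in 82.8% of Cdh5-positive members and in 2.01% of other Cdh5-positive cells. As a measure of free RNA, Foxf1 was found in 4 of 410 P1 cells that carried leukocyte markers (0.976%, at a median depth of 6513 UMIs). Cdh5-positive cells and members were left out of these 410, which can lower the share.

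Among Cdh5-negative members the commonest combinations were Foxf1, Tbx4 and Hsd11b1 in 8 cells, Foxf1, Tbx4 and Hoxa5 in 7, and these 4 genes together in 6. Hsd11b1 was the most abundant, at 0, 4 and 21 UMIs per cell (lowest, median, highest) and 579 CPM, against 6.31 CPM in other Cdh5-negative cells. Tbx4 was found in 36 of 41 cells, at 0, 1 and 6 UMIs and 193 CPM, against 2.18 CPM. Foxf1 was found in 28 of 41 cells at 258 CPM, against 5.13 CPM. Inmt was uneven, with 131 UMIs that all lay in 11 of the 41 cells, at 389 CPM against 1.12 CPM. Scn7a, which nearly all Cdh5-positive members held, was found in 9 Cdh5-negative members. Of all P1 UMIs of these genes in the cells kept, 53.9% for Foxf1 and 80.3% for Inmt were in the 100 members. The share was 46.1% for Tbx4, 43.0% for Hsd11b1, 41.0% for Hoxa5 and 37.8% for Scn7a.

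**Figure D1:**
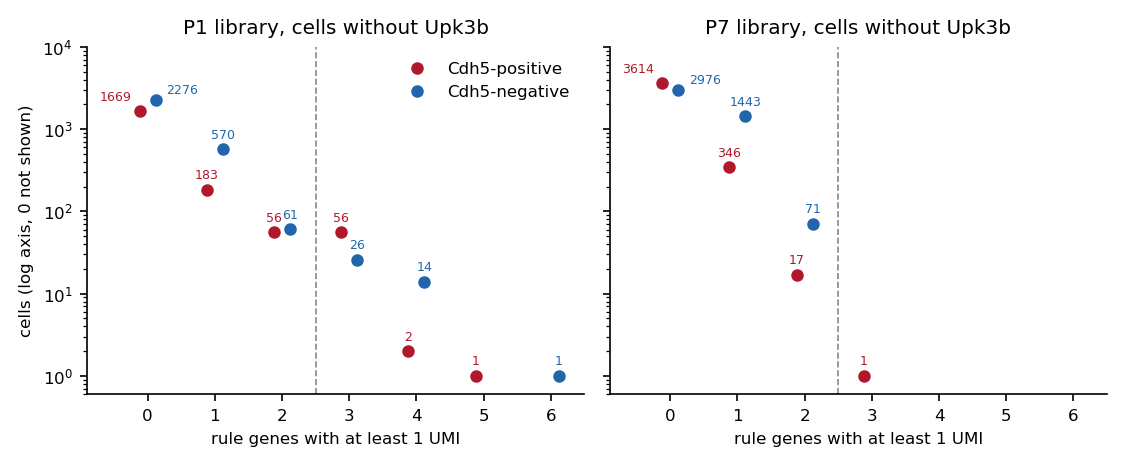
Number of cells without Upk3b (log axis) by how many of the 6 rule genes had a UMI, in the P1 library (left) and the P7 library (right), for Cdh5-positive (red) and Cdh5-negative (blue) cells. The dashed line marks the rule: at P1, 59 red and 41 blue cells lie to its right, and at P7 a single red cell does.

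Cells just outside the rule carried some of the same genes. Just inside it lay 82 P1 cells with 3 genes, and 18 members had 4 or more. Just outside lay 117 P1 cells with 2 genes and no Upk3b, 56 of them Cdh5-positive and 61 Cdh5-negative. In the 56 Cdh5-positive cells Foxf1 reached 810 CPM and was found in 49 cells, and Scn7a reached 1202 CPM, close to the levels in members, at a median of 4746 UMIs per cell. The 61 Cdh5-negative cells stood further away, with Foxf1 at 106.5 CPM in 19 cells and a median of 14446 UMIs. At P7 the rule found 1 of 8511 cells (0.0117%, 95% interval 0.000297 to 0.0654%). That cell was Cdh5-positive, held 18618 UMIs and had Foxf1, Hsd11b1 and Scn7a UMIs. It had 11 of 22 lung capillary genes, within the range of Cdh5-positive members at P1 (4 to 21, median 14). It had 9 of 13 heart endothelium genes, above the range of these members (1 to 7, median 4) and within that of other Cdh5-positive P1 cells (0 to 11, median 7).

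On GRCm38 with the GENCODE M21 annotation, Foxf1 lies at chr8:121084386-121088144 (+), Tbx4 at chr11:85886422-85916097 (+), Hoxa5 at chr6:52201754-52204587 (−), Hsd11b1 at chr1:193221634-193264075 (−), Inmt at chr6:55170626-55175043 (−) and Scn7a at chr2:66673425-66784914 (−). As members held several of these genes together, the 250 bases before the RefSeq start were read for the 5 genes with an entry (GRCm38.p6) and searched on both strands for the forkhead letters GTAAACA, which read TGTTTAC on the opposite strand, and for the T-box letters AGGTGTGA, which read TCACACCT there. The forkhead letters occurred in 3.17% and the T-box letters in 1.12% of 32851 promoters of the same length. Hsd11b1 was the only one of the 5 that held the forkhead letters, shown here in capitals, and none held the T-box letters. Its window is chr1:193242361-193242610, on the minus strand, and lies inside the gene's annotated span. The windows of Scn7a (chr2:66784911-66785160, minus strand) and Hoxa5 (chr6:52204588-52204837, minus strand), the pair that Cdh5-positive members shared with Foxf1, are shown beside it. A match is a run of letters and not a binding site, and its absence concerns this window only.
Hsd11b1: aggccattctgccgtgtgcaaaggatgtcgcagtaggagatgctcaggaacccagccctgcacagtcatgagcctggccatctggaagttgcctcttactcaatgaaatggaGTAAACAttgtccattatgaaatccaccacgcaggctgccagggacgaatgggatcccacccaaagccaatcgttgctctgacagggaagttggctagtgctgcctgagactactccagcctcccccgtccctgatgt
Scn7a: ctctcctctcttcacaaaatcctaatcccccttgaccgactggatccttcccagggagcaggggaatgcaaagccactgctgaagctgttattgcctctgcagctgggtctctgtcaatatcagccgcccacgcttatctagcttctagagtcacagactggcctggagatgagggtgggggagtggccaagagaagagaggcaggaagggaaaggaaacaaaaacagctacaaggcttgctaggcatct
Hoxa5: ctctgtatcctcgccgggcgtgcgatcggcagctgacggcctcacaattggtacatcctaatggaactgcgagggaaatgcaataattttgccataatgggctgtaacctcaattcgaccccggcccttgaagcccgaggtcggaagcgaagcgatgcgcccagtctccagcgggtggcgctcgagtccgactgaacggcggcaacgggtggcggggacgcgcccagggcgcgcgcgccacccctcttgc

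Cdh5-positive members were higher in many genes of lung capillaries and lower in several of heart capillaries. Of 6499 genes with a mean of at least 20 CPM, 483 (7.43%) were at least 2-fold higher and 230 (3.54%) at least 2-fold lower in members than in other Cdh5-positive cells, with a median log2 ratio of 0.19 over all 6499. The counting interval left out equality for every one of these genes. Of 21 genes counted in a list of lung capillary markers, 14 were higher and 1 was lower, with a median log2 ratio of 2.09. Genes such as Scn3b and Prx of this list, and Rasgef1a and Car2 of the highest ratios, reached the mean of 20 CPM only through members. The filter therefore set part of the tally. Without a minimum level 14 of 22 genes of the list were higher and 1 was lower (median 1.67, and 0.47 over all genes). Of 13 markers of heart endothelium, a list of capillary genes that also holds Npr3 and Gata4, none was higher and 7 were lower, with a median of −1.22. Of 15 general endothelial genes 3 were higher and none was lower, at a median of 0.26, close to that of all genes. With 3 counts added to each sum instead of 0.5, 78.3% of the calls were higher rather than 67.7%. The counts of higher and lower genes came to 2357 and 661 when the rule asked for at least 4 genes or left out Foxf1 or Hoxa5, each of which leaves the same number of 3 Cdh5-positive members. They came to 1702 and 521 when it left out Scn7a, which leaves 4, and to 1640 and 491 when all cells were thinned before the rule was applied, which leaves 24. The 3 cells held 0, 14 and 2 of the 15 general endothelial genes and 9, 1 and 12 of 12 general fibroblast genes. The 4 left without Scn7a add a cell with 10 and 11 of them and 7 of 8 pericyte genes. Values in these cells therefore do not describe endothelial cells alone. In the 3 cells 9 of 19 lung capillary genes were higher and 2 lower (median 0.50), and in the 4 cells 8 of 18 were higher and 6 lower (median 0.77). Of heart endothelium genes 10 of 12 were then lower in the 3 cells and 10 of 13 in the 4.

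Scn3b, the β3 subunit of voltage-gated sodium channels, had 0, 3 and 17 UMIs per cell (lowest, median, highest) and 401 CPM, against 11.5 CPM in other Cdh5-positive cells (log2 ratio 5.12, 4.86 to 5.39). It was found in 88.1% of members and 7.98% of other cells, in 56.9% and 2.62% after thinning, and in 1.22% of leukocyte-marker cells. The distributions overlapped, since 7 members had no UMI and single other cells reached 8. Lyve1, a hyaluronan receptor known from lymphatic vessels, had 0, 4 and 47 UMIs per cell and 989 CPM, against 40.1 CPM (4.62, 4.47 to 4.78). Its share was 78.0% against 6.15%, 65.5% against 3.79% after thinning, and 4.39% in leukocyte-marker cells. Other markers of lymphatic vessels did not go with it: Ccl21a and Reln had 0 UMIs in members, Prox1 had 5 UMIs, and Flt4, the VEGF-C receptor, had a log2 ratio of 0.57. Of the 3 lymphatic genes counted, Lyve1 was higher and Ccl21a was at least 22.2-fold lower.

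The remaining genes of the 15 highest covered several roles. Prdm8, a PR-domain transcriptional repressor, had the largest ratio (6.22, 5.28 to 7.26), with 27 UMIs in 32.2% of members and 15 UMIs in 0.678% of other cells. Rasgef1a, an exchange factor for Ras-family GTPases, followed (6.10, 74.1 against 1.07 CPM), and Car2, a carbonic anhydrase gene, had 181 against 5.29 CPM (5.10). Adrb1, encoding the β1-adrenergic receptor, had 101 against 4.47 CPM (4.51). Hpgd, which inactivates prostaglandins, had 383 against 16.5 CPM (4.54), and Prx, encoding periaxin, had 103 against 4.64 CPM (4.48). The secreted semaphorin gene Sema3c (4.21), the zinc finger factor gene Casz1 (4.16), Dnah8 (4.47), Mettl24 (4.42), Edil3 (4.14) and Nckap5 (3.98) were also among them. Hpgd, Prx, Sema3c and Scn3b were also in the lung capillary list. Some of these ratios did not stay past 2-fold under other rules. In the 4 cells left by the rule without Scn7a, Adrb1 was at 0.09, Sema3c at 0.73, Casz1 at −0.71 and Hpgd at −1.81. In the 3 cells left by the rules with at least 4 genes or without Foxf1 or Hoxa5, Casz1 was at 0.25 and Hpgd at −0.84.

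**Figure D2:**
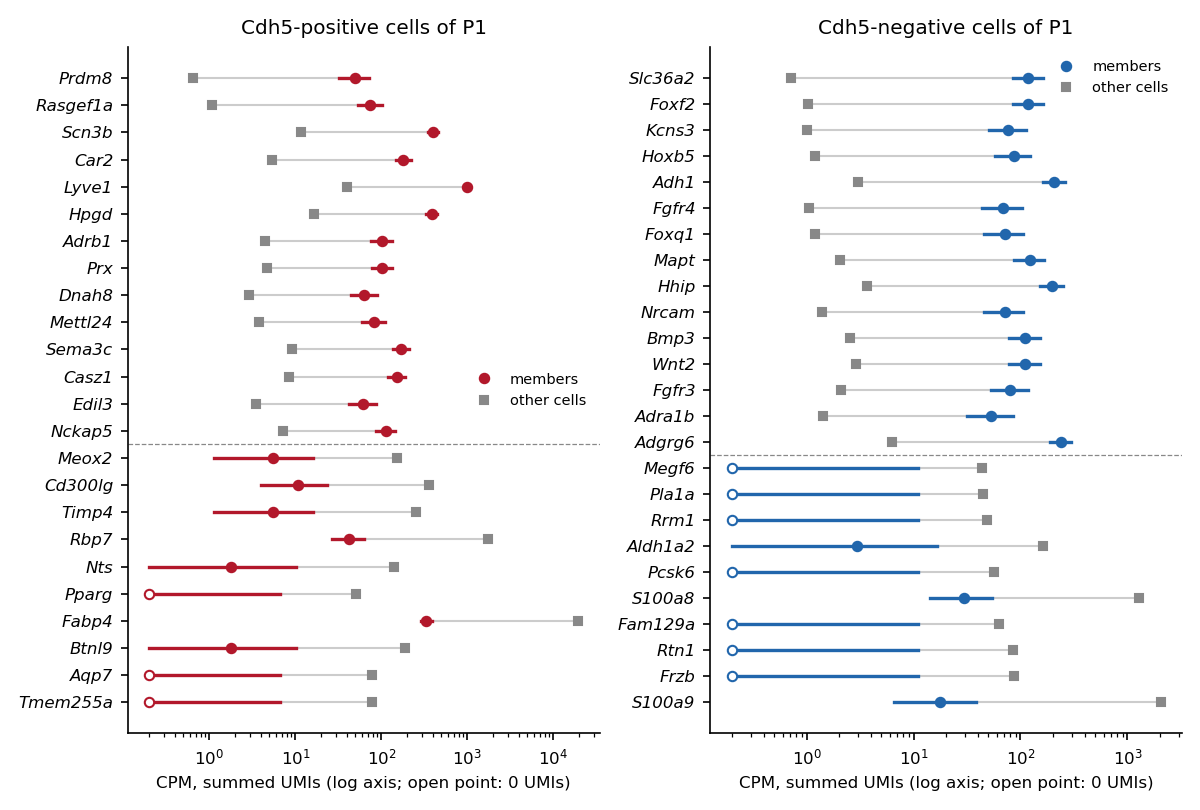
Level in CPM (log axis) of the genes named from the 15 with the highest and the 10 with the lowest ratio in Cdh5-positive (left) and Cdh5-negative (right) cells of P1, in members (coloured, with 95% Poisson intervals) and in other cells of the same Cdh5 state (grey squares). Genes above the dashed line were higher in members and those below it lower, and open points mark 0 UMIs.

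Other genes of the lung capillary list were more abundant. Calcrl, the receptor component for adrenomedullin, was the most abundant gene of the list in members, with 0, 8 and 49 UMIs per cell and 1061 CPM, against 107 CPM (log2 ratio 3.31). It was found in 70.7% of thinned members and 15.6% of thinned other cells. Tmem100, a membrane protein gene that acts downstream of endothelial BMP receptors, had 0, 6 and 25 UMIs per cell and 837 against 54.7 CPM (3.94, 3.78 to 4.09), in 70.7% against 7.42% of thinned cells. Acvrl1, the BMP receptor itself, had 694 against 77.3 CPM (3.17). Ace, the angiotensin-converting enzyme, had 434 against 28.4 CPM (3.93), Emp2 had 363 against 25.9 CPM (3.81), and the T-box factor gene Tbx3 had a ratio of 2.09. Not every gene of the list went this way. Car4 had a ratio of 0.18 (−0.06 to 0.39), Ednrb of 0.94, and Gpihbp1, which anchors lipoprotein lipase, was lower in members, at 698 against 1464 CPM (−1.07). Over the settings tried, Car4 ranged from −2.93 to 0.53 and Ednrb from −1.36 to 1.41. In the 3 cells left by the stricter rules Calcrl had a ratio of 0.50 and Tbx3 of −0.78, and in the 4 left by the rule without Scn7a Calcrl had 0.69, Acvrl1 0.85 and Tbx3 −1.75. Gpihbp1 was between −0.65 and −0.97 under 6 alternatives.

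Counted per cell, 14 of the 22 lung capillary genes (median, range 4 to 21) were found in a Cdh5-positive member, and 8 in another Cdh5-positive cell. At 2000 UMIs the medians were 9 and 3, and 98.3% of members against 67.7% of other cells held at least 3 of the genes. In leukocyte-marker cells the median was 1, with 3.19% holding 3 or more. The cells with 2 rule genes lay between, with a median of 8 genes.

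Several heart capillary genes were at or near 0 in members. Fabp4, the fatty acid-binding protein of heart capillaries, had 0, 2 and 23 UMIs per cell in members, where other Cdh5-positive cells had 0, 165 and 1994. The level was 334 against 19392 CPM (log2 ratio −5.85, −6.07 to −5.65), and cells with leukocyte markers had 235 CPM. Aqp7, a glycerol channel gene, had 0 UMIs against 1793 (at least 14.2-fold lower), Pparg, a nuclear receptor gene of lipid metabolism, had 0 against 1177 (at least 9.32-fold lower), and Tmem255a had 0 against 1815 (at least 14.4-fold lower). Members held 1 UMI of Btnl9 against 4408 in other cells (−6.13, −12.02 to −4.23), 1 UMI of Nts against 3284, 3 of Timp4 against 5852, and 6 of Cd300lg against 8346. Rbp7, a retinol-binding protein gene, had 41.6 against 1724 CPM (−5.34). Of the transcription factors of heart capillaries, Meox2 had 3 UMIs against 3497 (−4.57) and Tcf15 had 45.2 against 412 CPM (−3.16). In the lipid handling list 6 of 12 genes were lower and 1 was higher, with a median of −1.003. Cd36, a fatty acid transporter, was within 2-fold (−0.94), but ranged from −3.08 to −0.63 over the settings tried.

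General endothelial genes were at about the level of other Cdh5-positive cells in the 59 members. Egfl7, the most abundant of the 15, had 2331 against 1278 CPM, and Pecam1 had a ratio of 0.64. Cldn5, the tight junction gene, was higher, with 0, 15 and 76 UMIs per cell and 2088 against 783 CPM (1.41), as were Ptprb (1.31), a receptor phosphatase gene, and Sox17 (1.27). None of these 3 ratios kept its sign under every rule: Cldn5 was at −0.0291 and Sox17 at −1.02 in the 3 cells left by the stricter rules, and Cldn5 was at −0.995, Sox17 at −1.99 and Ptprb at −0.12 in the 4 left without Scn7a. In these cells 8 of 15 and 7 of 14 general endothelial genes were lower. Some of these cells held more general fibroblast than general endothelial genes. Fibroblast genes did not differ past 2-fold: 0 of 12 were higher or lower, and their summed level was 4677 against 5275 CPM. Of 8 lung mesenchyme genes counted 5 were higher (median 1.73), the most abundant being Mfap4 at 526 CPM. Few cells held several of them: the median was 1 of 19 genes per cell in members and in other cells. Of 58 thinned members 3 held at least 3. Before thinning single members reached 13 and 11, and these held 2 and 0 of the 15 general endothelial genes.

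**Figure D3:**
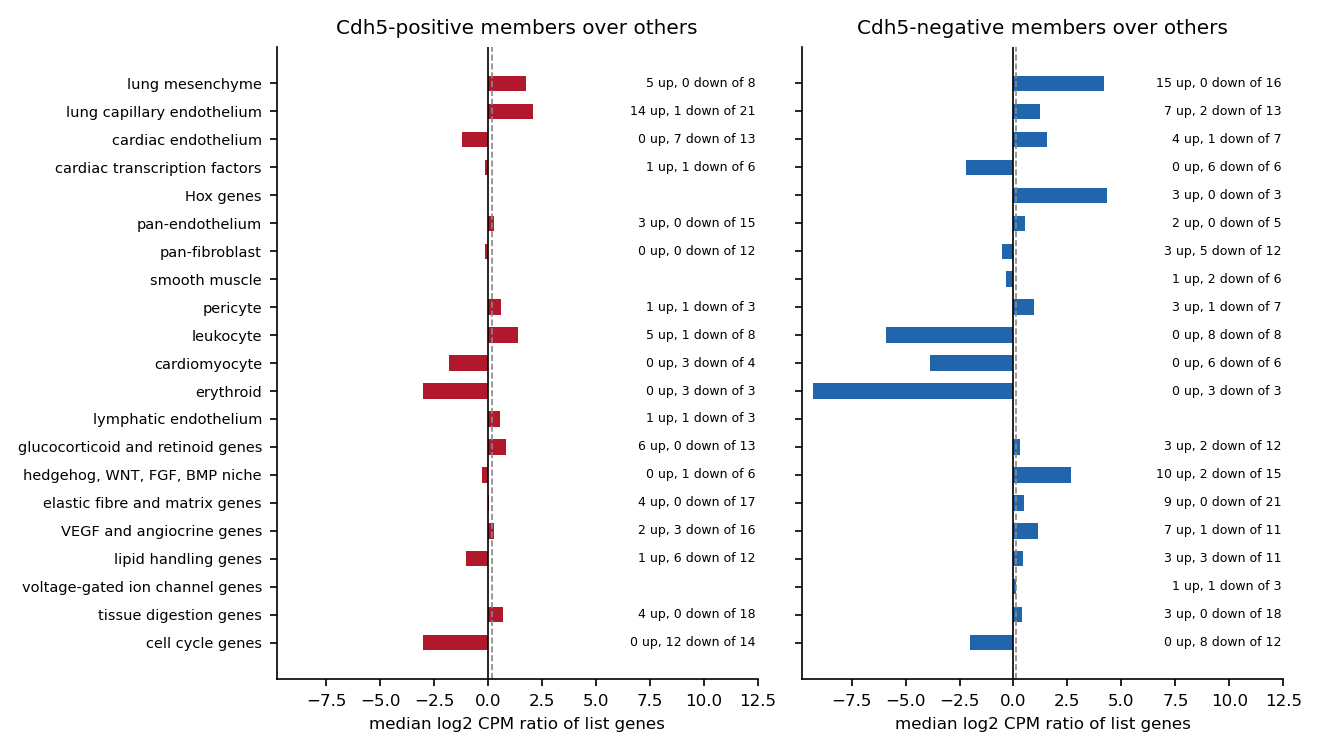
Median log2 CPM ratio (bars) of the genes of each list in Cdh5-positive (left) and Cdh5-negative (right) members over other P1 cells of the same Cdh5 state, for lists with at least 3 genes counted. The dashed line is the median of all genes counted, and the text gives how many genes were at least 2-fold higher (up) or lower (down). Lung capillary genes are above the line at 2.09 on the left, and lung mesenchyme genes at 4.21 on the right. The erythroid bar on the right rests on 3 genes at 0 UMIs in members, and is −6.69 with these genes at their bound.

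Other gene lists were counted in the same cells, where 7.43% of all genes were higher and 3.54% lower at a median of 0.19, and their part in the differences given so far was not tested. Of 14 cell cycle genes 12 were lower and none was higher (median −3.03). Top2a, which untangles replicated DNA, had 1 UMI in members against 2296, Ube2c 1 against 2464 and Mki67 2 against 1532. With at least 2 rule genes, which gives 115 Cdh5-positive members, 5 of 17 cell cycle genes were lower (median −0.75), with Top2a at −0.63, Ube2c at −0.09 and Mki67 at −0.08. Of 18 genes known to be induced by tissue digestion 4 were higher (median 0.71), led by Ier3 (2.94). Of 13 glucocorticoid and retinoid genes 6 were higher (median 0.85), among them Cyp26b1, which degrades retinoic acid (3.65, and 0.23 in the 4 cells left without Scn7a in the rule). Of 38 Hox genes 2 were counted (median 2.58), with Hoxb5 at 41.6 against 3.87 CPM (a log2 ratio of 3.45, and 0.58 when cells were thinned first). No Hox gene of the list was above 10.2 CPM in other cells. Both therefore reached the mean of 20 CPM only through members, and the filter fixed that they were higher. The summed level of the list was 145 against 48.0 CPM, with 31 of 39 entries at 0 UMIs in members. In the VEGF and angiocrine list 2 of 16 were higher and 3 lower (median 0.26), with Vegfa at 1.38 and Nrp2, a co-receptor of veins and lymphatics, at −2.43, or −0.20 in the 3 and −0.54 in the 4 cells left by the other rules. Of 2 ion channel genes Scn3b was higher and Kcna5 lower, with 2 UMIs in members, and of 17 elastic fibre and matrix genes 4 were higher (median 0.03).

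Markers of other cell types went in either direction in Cdh5-positive members. Of 8 leukocyte genes 5 were higher and 1 lower (median 1.41, summed 723 against 413 CPM), but the 84 UMIs of C1qa, the most abundant of them, all came from 1 of 59 cells (its ratio of 2.11 was −4.98 without the cells of highest doublet score), and Cd79a and Cd3e had 0 UMIs. Of 4 cardiomyocyte genes 3 were lower (median −1.82), as were all 3 haemoglobin genes counted (median −3.03). Wt1, the 1 mesothelial gene counted, had 1 UMI against 1259. Pericyte genes gave 1 higher and 1 lower of 3 (median 0.60), smooth muscle genes 1 lower of 2 (median −0.97), the 6 niche genes of the hedgehog, WNT, FGF and BMP pathways 1 lower (median −0.29), and the 6 cardiac transcription factor genes 1 higher and 1 lower (median −0.16). No Schwann cell gene reached 20 CPM. Of the alveolar epithelial genes, Sftpc, encoding surfactant protein C, was counted, with 19 UMIs in 12 of 59 members and 34.4 against 11.2 CPM (1.65, but 0.98 with at least 2 rule genes and 0.91 as the mean of each cell's CPM). The summed level of the 15 alveolar genes was 163 CPM in members and 23.8 CPM in other Cdh5-positive cells, with Sftpb, Lamp3 and Slc34a2 at 0 in members. At least 2 of them were found in 5 of 59 members and in 32 of 1918 other cells. The part of these cell types in the results was not tested.

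Since aerocytes and general capillary cells differ in Car4, the Cdh5-positive members were divided by it. The division was made after the values had been seen, and depth differed across it. A Car4 UMI was found in 22 members (median 7374 UMIs per cell) and not in 37 (5692 UMIs). Ednrb, the endothelin receptor B gene, had 183 UMIs in 18 of the 22 cells and 26 UMIs in 16 of the 37, which is 874 against 75.6 CPM (log2 ratio 3.51, 2.93 to 4.18). Emp2 had 157 against 44 UMIs (2.54, 2.06 to 3.07), Tbx2 had 62 against 19 (2.40, 1.66 to 3.25), and Apln, the ligand of the apelin receptor, had 14 in 6 cells against 0. The same division of the 1918 other Cdh5-positive cells, 825 with and 1093 without Car4, gave −0.27 for Ednrb, −0.18 for Emp2, 0.32 for Tbx2 and 0.73 for Apln.

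Some genes that differed with Car4 in other Cdh5-positive cells were level in members. Gpihbp1 had a ratio of 0.05 with against without Car4 in members and 1.598 in other cells, and Aplnr, the apelin receptor gene, had 0.07 and 1.67. Plvap, a gene of fenestrated and venous endothelium, had −0.26 and −3.45. Lyve1 was somewhat higher with Car4 in members (0.66), whereas in other cells it was lower (−3.31). The rule genes Foxf1 (0.60) and Scn7a (0.94) were higher and Hoxa5 (0.18) was level in members with Car4. The genes of this paragraph and the one before, other than those of the lists, were chosen after their values had been seen.

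**Figure D4:**
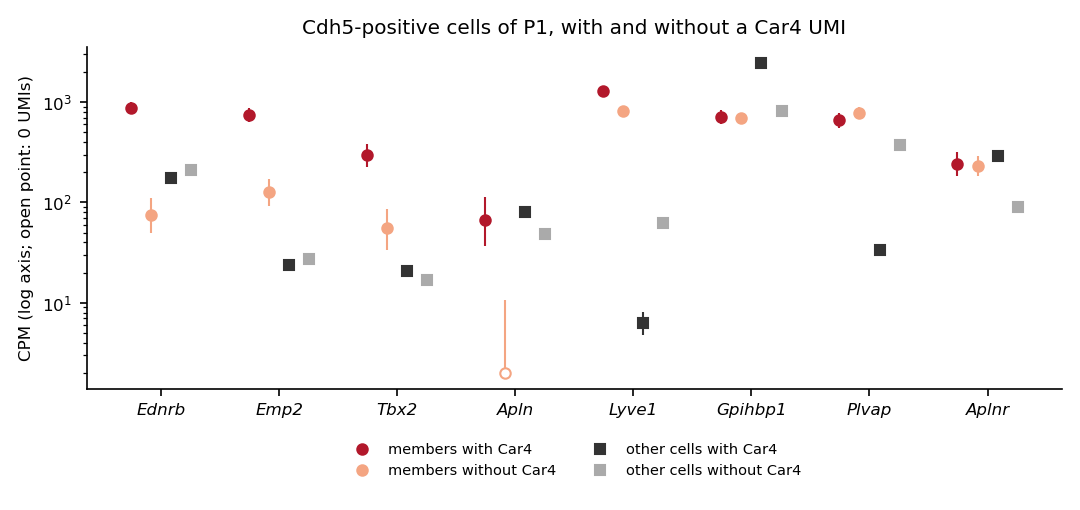
Level in CPM (log axis, with 95% Poisson intervals) of 8 genes in Cdh5-positive members with a Car4 UMI (22 cells, dark red) and without (37 cells, light red) and in other Cdh5-positive cells with (825, black) and without (1093, grey). Ednrb, Emp2, Tbx2 and Apln separate the red points, and Lyve1, Gpihbp1, Plvap and Aplnr separate the squares further than the red points. Open points mark 0 UMIs.

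Cdh5-negative members were higher in genes of lung mesenchyme. With at least 3 rule genes they were also lower in the 6 transcription factors of heart mesenchyme that were counted. Of 6634 genes counted, 647 (9.75%) were at least 2-fold higher and 417 (6.29%) at least 2-fold lower than in other Cdh5-negative cells, with a median log2 ratio of 0.10 over all of them. The counting interval left out equality for 617 and 401 of these. Of 16 lung mesenchyme genes counted 15 were higher and none was lower (median 4.21). Genes such as Foxf2, Wnt2 and Hhip reached the mean of 20 CPM only through members, so the filter set part of this tally. Without a minimum level 18 of 19 genes of the list were higher and none was lower (median 4.07, and 0.53 over all genes). Of 6 cardiac transcription factor genes counted all 6 were lower (median −2.21). Without a minimum level, 8 of the 15 genes of that list were lower and 3 higher (median −1.04). With at least 2 rule genes, which gives 102 Cdh5-negative members in place of 41, the counts were 193 higher and 156 lower, 11 of 14 lung mesenchyme genes were higher (median 3.09), and none of the 6 cardiac factors was past 2-fold (median −0.58). With at least 4 rule genes (15 members) 1064 were higher and 639 lower, and with cells thinned first (12 members) 2995 and 938. With 3 counts added, 76.4% of the calls were higher rather than 60.8%. Other Cdh5-negative cells are a mixture that includes leukocytes, so the ratios were also taken over the 1378 of them with a Pdgfra UMI, a marker of fibroblasts, where 678 genes were higher and 391 lower of 6527.

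Slc36a2, an amino acid transporter gene, had the largest ratio (7.36, 6.61 to 8.15), with 0, 0 and 8 UMIs per cell and 119 CPM, against 0.717 CPM in other Cdh5-negative cells. Foxf2, the paralogue of Foxf1, had 119 against 1.03 CPM (6.84, 6.16 to 7.54), and was found in 46.3% of members, 0.774% of other cells and none of the leukocyte-marker cells. Adh1, an alcohol dehydrogenase gene of retinol metabolism, had 208 against 3.01 CPM (6.11), in 25.6% against 0.791% of thinned cells. These genes were detected in part of the members, whose median count was 0 for each of them.

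The remaining genes of the 15 highest included ligands, receptors and a channel. Hhip, which binds hedgehog ligands, had 196 against 3.64 CPM (5.75), with 36 of its 66 UMIs in 1 cell. Wnt2, a ligand of lung mesenchyme, had 110 against 2.90 CPM (5.26), and Bmp3 had a ratio of 5.44. The fibroblast growth factor receptors Fgfr4 (6.02) and Fgfr3 (5.26), the α1-adrenergic receptor Adra1b (5.24) and the adhesion receptor Adgrg6 (5.24, 237 against 6.31 CPM) were among them. The potassium channel subunit gene Kcns3 (6.27), Hoxb5 (6.17), the forkhead factor gene Foxq1 (5.90), the microtubule protein gene Mapt (5.89) and the adhesion molecule gene Nrcam (5.68) completed the set. Over the cells with a Pdgfra UMI the 15 ratios were between 5.45 and 7.71. Foxq1 was at 0.57 in the 20 cells left when Tbx4 was taken out of the rule.

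The lung mesenchyme list held abundant as well as rare genes. Mfap4, a protein gene of elastic fibres and its most abundant member, had 0, 24 and 178 UMIs per cell and 5418 against 695 CPM (log2 ratio 2.96). The share of cells with an Mfap4 UMI was 68.3% in members and 56.3% in other cells. These shares were taken before thinning and members were shallower, so they do not separate the amount per cell from the share of cells. Among members the UMIs were uneven, with 1653 in the 21 cells called mesenchyme-rich below and 1 in the 9 called pericyte-rich. Npnt, an integrin ligand gene, had 0, 1 and 26 UMIs and 454 against 13.1 CPM (5.12), in 35.9% against 1.90% of thinned cells and 0.488% of leukocyte-marker cells. Tbx2 had 0, 3 and 16 UMIs and 484 against 45.2 CPM (3.42), in 56.4% against 7.12% of thinned cells and 2.68% of leukocyte-marker cells before thinning. Col13a1 (4.64), Cxcl14 (4.595), Tbx5 (4.07), Limch1 (3.45), Vegfd (2.84), Tcf21 (1.25) and Itga8 (1.07) were also higher, and Pdgfra, at −0.32, was within 2-fold. Tcf21 and Itga8 were close to the 2-fold limit and fell within it under 3 and 6 alternatives, to 0.77 and 0.70 at the lowest. In thinned cells a median of 4 of the 19 genes was found in members and 1 in other cells, with 74.4% and 18.6% holding at least 3. Before thinning the medians were 8 (range 0 to 14) and 3.

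Of the transcription factors of heart mesenchyme, Tbx20 was at the level of free RNA in members. It had 4 UMIs in 2 of 41 members and 13662 UMIs in other Cdh5-negative cells (−4.88, −6.92 to −3.69). Its share in members, 4.88%, was below the 9.02% in leukocyte-marker cells, and in other Cdh5-negative cells it was 58.6%. Gata4 had 2 UMIs against 2686 (−3.38), and Hand2 (−2.28), Gata6 (−2.15) and Tbx18 (−2.02), a factor of epicardial derivatives and pericytes, were lower too. With at least 2 rule genes the ratios were −0.43 for Tbx20, −0.59 for Gata4, −0.58 for Hand2, −0.85 for Gata6 and −0.07 for Tbx18, all within 2-fold, and Tbx18 was at 0.52 when cells were thinned first. Of 38 Hox genes 3 were counted (median 4.34): Hoxb5, Hoxb4 (4.34) and Hoxb2 (3.63). No Hox gene of the list was above 10.6 CPM in other cells, so the mean of 20 CPM was reached only through members. The filter therefore fixed that these 3 were higher. Summed over the list the level was 451 against 26.5 CPM, and 28 of 39 entries had 0 UMIs in members. TBX20, GATA4 and HAND2 are factors of heart development, whereas the Hox genes pattern more posterior tissue.

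Matrix genes were counted in 2 lists, where 9.75% of all genes were higher and 6.29% lower. Of 21 elastic fibre and matrix genes 9 were higher and none was lower (median 0.49). Eln, encoding elastin, had 0, 17 and 785 UMIs per cell and 8932 against 1659 CPM (2.43), and Ltbp2, which binds fibrillin, had 2.67. Of 12 general fibroblast genes 3 were higher and 5 lower (median −0.54). Mgp had 6187 against 2346 CPM (1.40) and Gsn a ratio of 1.69, while the collagen genes Col1a1 (−1.02) and Col3a1 (−1.32), Postn (−1.55), Lum (−2.23) and Dcn were lower. Dcn, encoding decorin, had 0, 0 and 82 UMIs per cell in members against 0, 22 and 432 in other cells (445 against 5020 CPM, −3.49), and leukocyte-marker cells had 438 CPM. With at least 2 rule genes none of the 12 general fibroblast genes was past 2-fold, with Dcn at −0.40, Lum at −0.45, Postn at −0.49, Col3a1 at −0.23, Col1a1 at −0.25, Gsn at 0.94 and Mgp at 0.90. When cells were thinned first Eln was at 0.77 and Mgp at 0.40.

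Of 28 genes of the hedgehog, WNT, FGF and BMP pathways 15 were counted, of which 10 were higher and 2 lower (median 2.66). Genes such as Hhip and Wnt2 reached the mean of 20 CPM only through members, so the filter set part of this tally. The summed level of the 28 genes was 1392 against 850 CPM. Besides Hhip, Wnt2, Fgfr4 and Bmp3, Ptch1, a hedgehog receptor and target gene, had 154 against 24.1 CPM (2.69), and Axin2, a WNT target gene, 62.3 against 5.51 CPM (3.53). The WNT antagonist gene Sfrp2 was lower (−3.31). In the VEGF and angiocrine list 7 of 11 were higher and 1 lower (median 1.15), among them both endothelin receptors, Ednra (249 against 20.4 CPM) and Ednrb, each at 3.61, Nrp2 (3.03) and Angpt1 (2.95), the ligand of the TIE2 receptor. Ednrb was within 2-fold, at 0.78, 0.91 and 0.45, when Foxf1, Tbx4 or Hoxa5 was taken out of the rule. Of the lung capillary list, 7 of 13 were higher and 2 lower (median 1.22). Of the heart endothelium list 4 of 7 were higher and 1 lower (median 1.56), with Npr3, the natriuretic peptide clearance receptor, at 4.35. Of the general endothelial list 2 of 5 were higher (median 0.54). Of the 41 cells, 2 carried Foxf1, Hoxa5 and Scn7a, as Cdh5-positive members did, and had 10 and 7 of the 15 general endothelial genes, where the median was 1. Of 14 Cldn5 UMIs in the 41 cells, which lay in 4 cells, 13 were in cells with few mesenchyme and pericyte genes. Ptch1, Axin2, Eln and Sfrp2 were named after their values had been seen where they were not among the 4 largest ratios of a list.

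The 10 genes with the lowest ratios included the neutrophil genes S100a9 (−6.72) and S100a8 (−5.36). Over the cells with a Pdgfra UMI these 2 ratios were −2.30 and −1.15. The WNT antagonist gene Frzb (0 against 3011 UMIs, at least 9.70-fold lower), Rtn1 (at least 9.63-fold), Fam129a (at least 7.11-fold), the proprotein convertase gene Pcsk6 (at least 6.36-fold), the ribonucleotide reductase gene Rrm1 (at least 5.47-fold), Pla1a (at least 5.0005-fold) and Megf6 (at least 4.92-fold) had 0 UMIs in members. Aldh1a2, which makes retinoic acid, had 1 UMI against 5644 (−5.18, −11.07 to −3.29). The bounds hold for the 41 members. With at least 2 rule genes the ratios were −0.14 for Frzb, −0.51 for Fam129a, −0.32 for Pcsk6, −0.29 for Pla1a, −0.41 for Megf6 and −0.30 for Aldh1a2, and when cells were thinned first, with 12 members, Rrm1 was at −0.97, Pcsk6 at −0.88 and Pla1a at −0.72.

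Of markers of other cell types in Cdh5-negative members, all 8 leukocyte genes counted were lower (median −5.89, or −4.59 with genes at 0 set to their bound, summed 23.7 against 2019 CPM), with C1qa at 0 against 4751 UMIs and Lyz2 at 2 against 25376 (−6.62, but −0.95 with at least 2 rule genes). All 6 erythroid genes had 0 UMIs, and Hbb-bs was at least 124-fold lower. The 6 cardiomyocyte genes counted were lower (median −3.88, or −3.66 with the bound). Both alveolar genes counted were lower (median −3.95), with 4 UMIs of Sftpc in 4 members against 10313 UMIs, and Cdh1, Epcam and Nkx2-1 had 0 UMIs. Over the cells with a Pdgfra UMI the Sftpc ratio was 0.82. The mesothelial gene counted, Msln, had 0 UMIs, no Schwann cell gene was counted, and the 1 lymphatic gene counted was within 2-fold.

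Of 7 pericyte genes 3 were higher and 1 lower (median 0.95), namely Higd1b (2.61), Pdgfrb (1.98) and Kcnj8 (1.37), and Rgs5 at −1.63. Rgs5 turned to 0.94 over the cells with a Pdgfra UMI, where 6 of 7 pericyte genes were higher and none lower, and to 0.10 with at least 2 rule genes, and Kcnj8 was at 0.99 without Foxf1 in the rule. Of 6 smooth muscle genes 1 was higher and 2 were lower (median −0.33). Of 12 cell cycle genes 8 were lower and none higher (median −2.04), with 0 UMIs of Birc5 against 2284 and 1 of Top2a against 2641. Of 18 digestion genes 3 were higher (median 0.41), of 12 glucocorticoid and retinoid genes 3 higher and 2 lower (median 0.32), of 11 lipid handling genes 3 higher and 3 lower (median 0.43), and of 3 ion channel genes 1 higher and 1 lower (median 0.12).

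The pericyte genes were not spread evenly over the 41 Cdh5-negative members. With limits set after the values had been seen, 21 cells held at least 8 of 19 lung mesenchyme genes and fewer than 4 of 8 pericyte genes and are called mesenchyme-rich, 9 held at least 4 pericyte genes and fewer than 8 lung mesenchyme genes and are called pericyte-rich, 1 passed both limits and 10 neither. Their median depths were 7944 and 6022 UMIs. The split used the genes of these lists, so Mfap4 (1653 against 1 UMIs), Limch1 (365 against 0) and Higd1b (1 against 80) only describe it. Outside the lists used, Eln had 5, 29 and 785 UMIs per cell in mesenchyme-rich cells, or 14475 CPM, and 0, 0 and 17 in pericyte-rich cells, or 323 CPM. The flavin monooxygenase gene Fmo2 had 237 against 0 UMIs (at least 23.7-fold higher) and the elastin cross-linking enzyme gene Loxl1 91 against 0 (at least 9.11-fold). In the other direction Cox4i2, a subunit of the respiratory chain known from pericytes, had 0 against 124 UMIs (at least 138-fold lower), the channel gene Trpc6 0 against 29, Mcam, the CD146 adhesion molecule gene, 0 against 42, and the guanylyl cyclase gene Gucy1a1 7 against 252. These genes were picked by their ratios.

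The 2 kinds of cell met the rule in different ways. Inmt had 110 UMIs in 10 of 21 mesenchyme-rich cells and 0 in the 9 pericyte-rich cells. Foxf1 was found in all 9 pericyte-rich cells, with 2, 5 and 11 UMIs per cell and 808 CPM, and in 9 of 21 mesenchyme-rich cells at 119 CPM. Hsd11b1 was level, at 682 and 712 CPM. Adgrg6, one of the 15 genes named, had 2, 7 and 12 UMIs in the pericyte-rich cells (1095 CPM) and 70.1 CPM in the others, and Foxf2 395 and 75.5 CPM.

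Cells with pericyte genes that were not members gave a closer comparison. 368 other Cdh5-negative cells had at least 4 pericyte genes (median 11812 UMIs). Adgrg6 had 1095 CPM in the 9 pericyte-rich members and 3.32 CPM in these cells, Foxf2 395 and 0.830 CPM, and Tbx2 1346 and 208 CPM. Tbx20 had 0 UMIs in the 9 cells and 237 CPM in the 368, and Dcn 89.7 and 1915 CPM. The 9 cells held 55725 UMIs in all, so for a gene at 0 the Poisson interval reaches 66.2 CPM, and the 3 counts behind the fold bounds are 53.8 CPM.

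**Figure D5:**
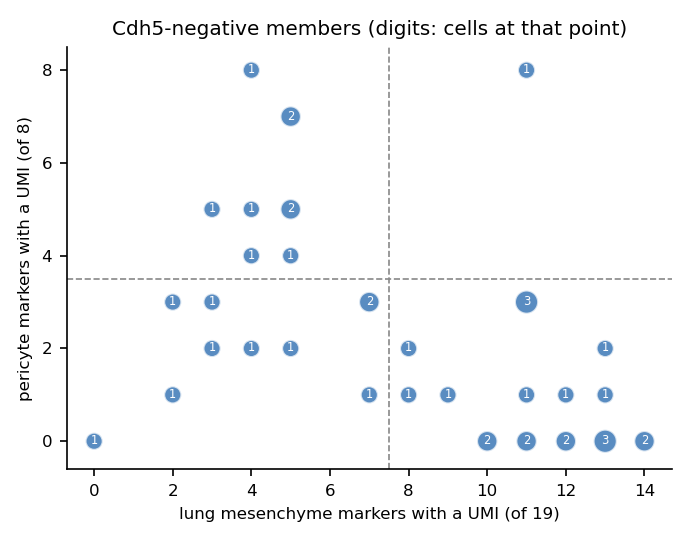
Number of the 19 lung mesenchyme genes (horizontal axis) and of the 8 pericyte genes (vertical axis) with a UMI in each of the 41 Cdh5-negative members. The digit in a point is the number of cells there, and dashed lines mark the limits of 8 and 4 genes: 21 cells lie to the lower right, 9 to the upper left, 1 to the upper right and 10 to the lower left.

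Some genes were higher in members of either Cdh5 state. Of 5689 genes counted in both comparisons, 103 were at least 2-fold higher in both. They are 35.9% of the 287 that were higher in Cdh5-positive members, where 6.36% of all 5689 were higher in Cdh5-negative members. They are 28.5% of the 362 that were higher in Cdh5-negative members, where 5.04% of all 5689 were higher in Cdh5-positive members. Genes such as Car2 and Hoxb5 reached the mean of 20 CPM in both comparisons only through members. The filter therefore fixed that such genes were higher in both, and it set part of this overlap. 65 were lower in both, which is 39.9% of the 163 lower in Cdh5-positive members, where 5.27% of all 5689 were lower in Cdh5-negative members. These 65 are 21.7% of the 300 lower in Cdh5-negative members, where 2.87% of all 5689 were lower in Cdh5-positive members. The overlap was not tested. The members and the comparison cells of the 2 states do not overlap. Car2 had ratios of 5.10 and 4.99 in Cdh5-positive and Cdh5-negative members, Hoxb5 of 3.45 and 6.17, Tbx2 of 3.00 and 3.42, Tbx3 of 2.09 and 2.69, and Adgrg6 of 1.87 and 5.24. Thbd, encoding thrombomodulin, had 2.38 and 4.06, Tmem176a 2.27 and 3.42, and Pde5a, which degrades cyclic GMP, 2.55 and 3.16. Thbd, Tmem176a and Pde5a were named after their values had been seen. The alternatives under which Hoxb5 and Tbx3 were not past 2-fold in Cdh5-positive members are given with these genes.

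At P7 the same lists were counted per cell without the rule. Of 1850 Cdh5-positive P1 cells thinned to 2000 UMIs, 60 (3.24%, 2.48 to 4.16%) held at least 9 lung capillary genes, the median of the members, and 30 of them were members. At P7 it was 2 of 3730 cells (0.0536%, 0.00649 to 0.194%). Without thinning the shares came to 38.1% at P1, where the median depth was 10867 UMIs, and 28.7% at P7, where it was 8168 UMIs. For lung mesenchyme genes the libraries were closer: at least 4 were found in 6.04% of 2567 thinned Cdh5-negative cells at P1, 23 of which were members, and in 4.79% of 4054 at P7. Without thinning the order turned, with 43.2% at P1 (median 10935.5 UMIs) and 49.6% at P7 (13257.5 UMIs).

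Summed over all cells kept, Foxf1 had 19.4 CPM at P1 and 0.903 CPM at P7, Tbx4 2.58 and 0.123 CPM, and Foxf2 1.39 and 0.0821 CPM. Inmt had 208 UMIs at P1 and 1 at P7, Slc36a2 75 and 1, and Sftpc 10597 and 1, of which 0.217% were in members. Scn7a was found at both ages, at 35.0 and 27.2 CPM, and Prdm8 was higher at P7 (0.932 and 3.86 CPM). At least 3 alveolar genes were held by 20 of 2567 thinned Cdh5-negative P1 cells (0.779%), none of them a member, and by 0 of 4054 at P7, for which the upper limit is 0.0910%. Of thinned Cdh5-positive cells, 1 of 1850 held as many at P1, and this cell was a member. At P7 it was 0 of 3730.

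Signs of 2 cells in 1 droplet were counted, and no doublet caller was applied. Of the 59 Cdh5-positive members 5 (8.47%) had marker genes that went against their Cdh5 state, as did 14.5% of other Cdh5-positive cells, and of the 41 Cdh5-negative members 1 did (2.44%, and 5.25% of other cells). At least 2 alveolar genes were found in 1 Cdh5-negative member. Of the members of either state 7 and 3, with 148 and 117 of the other cells of either state, were among the 275 P1 cells (5.51%) with the highest similarity to simulated doublets, a limit meant for the top 6% that leaves out 64 cells tied at it. Without the 6 members whose markers went against their state, 611 genes were higher and 242 lower in Cdh5-positive members, and 652 and 425 in Cdh5-negative members.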

How the data were processed

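Live cells of P1 and P7 hearts were profiled with 1 library per age. Per the submitters' processing notes and the paper, the authors used Cell Ranger 3.1.0 with mm10 and deposited, for each library, the raw UMI counts of every gene in every barcode. Positions of genes were taken from GENCODE M21 (GRCm38). Cells with 200 to 8000 genes and at most 20% mitochondrial UMIs were kept, a mitochondrial limit that the sources used here do not state. UMIs were summed per group, and genes with a mean of at least 20 CPM were counted (python 3.11.15, numpy 2.4.6, scipy 1.17.1, pandas 2.3.3, scikit-learn 1.9.0, matplotlib 3.10.9). The rule genes, Cdh5 and Upk3b stayed out of all counts of genes. A gene was called past a 2-fold ratio. Fold bounds for genes at 0 take 3 counts over the group. Leukocyte-marker cells are P1 cells with at least 4 leukocyte genes that had no Cdh5 UMI and were not members.

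Named genes are the rule genes, the 15 highest and 10 lowest ratios (UMIs in at least 20% of the cells of the higher group), the 4 largest ratios of each list, and the most abundant gene of marker lists; others were chosen after their values were seen. 1 of the 15 highest ratios of Cdh5-positive members is not reported here. The members and the 24 lists were chosen with earlier results of these data known. The computation of ratios and intervals was checked on simulated data. The alternatives varied the rule, the filters, the depth, the scaling and the comparison cells.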

Additional observations from a re-analysis of the deposited data

How the results depend on the processing

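Over 128 genes and 2887 combinations of gene and setting, 2841 ratios kept their sign, 27 of genes past 2-fold changed it, and 19 of 5 genes within 2-fold did so. These 5 were Car4, Ednrb, Pecam1 and Flt4 in Cdh5-positive and Pdgfra in Cdh5-negative members. Of these combinations 696, the 27 among them, lay outside the counting interval of the reported ratio. Of 122 genes past 2-fold, 74 stayed past it in the same direction under every alternative and 48 did not, in 111 of 2754 combinations. With at least 2 rule genes 5 genes in Cdh5-positive and 22 in Cdh5-negative members were no longer past it, without Scn7a 13 in Cdh5-positive members, with at least 4 genes 11 and 3, and in thinned cells 2 and 8. The causes were not tested.

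The number of members was 217 with at least 2 rule genes, 18 with at least 4, 26 without Foxf1, 79 without Tbx4, 30 without Hoxa5, 40 without Scn7a, and 36 when cells were thinned first. The rules without Foxf1 or Hoxa5 or with at least 4 genes leave 3 Cdh5-positive members, and that without Scn7a leaves 4. Cdh5-negative members numbered 102 with at least 2 genes, 15 with at least 4, 23 without Foxf1, 20 without Tbx4, 27 without Hoxa5, 25 without Hsd11b1 and 12 in thinned cells, and Cdh5-positive members 115 with at least 2 genes and 24 in thinned cells. Genes higher and lower in Cdh5-positive members then numbered 2357 and 661 for the first 3 rules and 1702 and 521 without Scn7a. There fewer cells give wider counting error, and some of the cells left held more general fibroblast than general endothelial genes.

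In Cdh5-negative members the counts were 193 and 156 with at least 2 genes, 1064 and 639 with at least 4, and 627 lower without Foxf1. Thinned cells gave 1640 and 491 in Cdh5-positive and 2995 and 938 in Cdh5-negative members. Without the cells of highest doublet score 350 genes were lower in Cdh5-positive members. A minimum of 50 CPM, which counts fewer genes, gave 229 and 108, and 255 and 173, and no minimum gave 6669 and 1301, and 8039 and 1960. All other counts of members and of genes over the whole table stayed within 1.5 times.

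Under the rules that leave 3 members, Hpgd was at −0.84, Tbx3 at −0.78, Cldn5 at −0.0291, Sox17 at −1.02 and C1qa at −1.45 in Cdh5-positive members. Without Scn7a they were at −1.81, −1.75, −0.995, −1.99 and −2.41, with Casz1 at −0.71 and Ptprb at −0.12. C1qa was at −4.98 without the cells of highest doublet score. In Cdh5-negative members Tbx18 was at 0.52 in thinned cells, Rgs5 at 0.10 with at least 2 rule genes, and Rgs5 at 0.94 and Sftpc at 0.82 over cells with a Pdgfra UMI, an alternative added after the data were seen. The causes of these changes of sign were not tested. No paired analysis was possible because each age has 1 library. Genes with few UMIs in 59 or 41 cells are limited by depth.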
